A study of Mus musculus with 6 samples.

Results

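The genes described here encode the proteins of the cytosolic ribosome. They were chosen by symbol, as every gene named Rps or Rpl followed by a number, by p0 to p2 or by a, and pseudogenes named as such were left out. The rule found 84 of the 34745 genes in the deposited table, 33 of the small subunit and 51 of the large subunit. RNA-seq had been made from 3 liver tumors of Prmt3 f/f mice, labelled WT (tumors 7, 66 and 71), and 3 liver tumors of Prmt3 LKO mice (tumors 92, 93 and 94), all at 26 weeks of age, with 1 library for each tumor. All mice had received diethylnitrosamine (DEN), a liver carcinogen, when 2 weeks old (25 mg/kg). From 6 weeks they were given 10% carbon tetrachloride (CCl4), which injures hepatocytes, at 0.5 ml/kg. The f/f mice carry floxed Prmt3 without Cre. In LKO mice Alb-Cre deletes it in cells that express albumin, so Prmt3 RNA of other cells of the tumor can remain.

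A ribosome needs close to equal numbers of its proteins, which the cell makes from mRNAs that are among the most abundant and most stably expressed in any tissue. PRMT3 is a cytosolic arginine methyltransferase, and its best known substrate is the ribosomal protein Rps2, which lies near the mRNA entrance of the small subunit. Rps2 carries a stretch rich in arginine and glycine, the kind of sequence that such enzymes methylate. Methylation acts on the protein, and the counts described here are of RNA. The comparison asks whether the RNA of Rps2, or of the ribosomal proteins as a family, differed between tumors with and without hepatocyte Prmt3.

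The arginine-glycine stretch of Rps2 is shown because it sets this gene apart from the rest of the family. It is given as coding bases of the transcript Rps2-208 (GENCODE M21), codons 13 to 52, from an exonic part of the gene at chromosome 17, 24718116 to 24721929, + strand, in GRCm38. Capitals mark the codon pairs for arginine followed by glycine.
Rps2: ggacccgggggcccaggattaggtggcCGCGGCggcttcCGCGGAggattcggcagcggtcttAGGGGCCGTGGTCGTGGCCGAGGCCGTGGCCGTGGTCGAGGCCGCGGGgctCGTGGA
This stretch of 120 bases holds 11 of the 15 such codon pairs of Rps2. The median over the family was 1 pair, and the next highest number was 5, in Rpl8 and Rps10.

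Ribosomal protein genes have left many near-identical copies of their mRNAs in the genome. This bears on every value below, since reads of a gene and of its copy can be hard to tell apart. A stretch of 60 coding bases is shown for 3 genes and the copy that took most of the reads, with the bases that differ in capitals. They were taken from GENCODE M21 transcripts.
Rps27: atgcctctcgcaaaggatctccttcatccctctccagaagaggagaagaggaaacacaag
Rps27rt: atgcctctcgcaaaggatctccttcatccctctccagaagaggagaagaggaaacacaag
Rpl9: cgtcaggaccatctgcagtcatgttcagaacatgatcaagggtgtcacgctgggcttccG
Rpl9-ps6: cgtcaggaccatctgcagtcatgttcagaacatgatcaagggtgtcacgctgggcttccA
Rpl37: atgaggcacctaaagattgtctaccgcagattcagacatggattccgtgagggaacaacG
Rpl37rt: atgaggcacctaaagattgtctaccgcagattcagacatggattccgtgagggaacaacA
Over the whole coding sequence, Rps27 (chromosome 3, 90212522 to 90213651) and Rps27rt (chromosome 9, 114982371 to 114982740) differed at 0 of 255 bases. Rpl9 (chromosome 5, 65388364 to 65391444) and Rpl9-ps6 (chromosome 19, 32465885 to 32466575) differed at 1 of 579 bases, and Rpl37 (chromosome 15, 5116613 to 5119140) and Rpl37rt (chromosome 5, 115102923 to 115110268) at 1 of 294.

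Between 18440244 and 27976598 reads were counted per tumor. Prmt3 was at 6.60, 8.49 and 10.2 CPM (the normalised read count, scaled by library size) in f/f tumors 7, 66 and 71, and at 2.80, 2.03 and 3.82 CPM in LKO tumors 92, 93 and 94, a log2 fold change of -1.55 ± 0.29 (SE). The groups did not overlap, and LKO tumors were lower, the direction that their knockout label implies. The adjusted p was 0.592 with edgeR's quasi-likelihood test and 0.00357 with DESeq2. With edgeR, 0 of the 13892 genes tested passed an adjusted p of 0.05, and 607 lower and 305 higher genes had an unadjusted p under 0.05. DESeq2 called 66 genes. The hepatocyte markers were high in all tumors, with Alb alone taking up to 16.1% of the counts. The summed markers of T cells ran from 29.4 to 35.9 CPM in f/f tumors and from 6.51 to 19.8 CPM in LKO tumors, with 7 of 9 markers lower in every LKO tumor, where 6.6% of all genes tested were. Macrophage markers summed to 476 to 532 CPM in f/f and to 318 to 455 CPM in LKO tumors, with 4 of 8 lower in every LKO tumor. Neutrophil and monocyte markers summed to 23.7 to 43.9 CPM and 10.6 to 13.1 CPM, with 5 of 5 tested lower in every LKO tumor and Ly6g at or under 3 counts in all 6. B cell markers summed to 46.8 to 72.9 CPM and 12.6 to 45.0 CPM, with 2 of 6 lower in every LKO tumor, and erythroid markers to 81.8 to 140.0 CPM and 66.9 to 75.2 CPM, with 4 of 5. Of 10 kidney markers, 3 passed the filter and all 3 were higher in every LKO tumor, where 5.56% of all genes were. Their part in the ribosomal protein results was not tested.

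As a family, the ribosomal protein genes took 0.917%, 0.795% and 0.668% of all counts in f/f tumors 7, 66 and 71. They took 0.799%, 0.916% and 0.807% in LKO tumors 92, 93 and 94. The highest and the lowest of the 6 tumors were both f/f, and the 3 LKO tumors lay between them. Each share had a Wilson 95% interval within 0.01 percentage points of it, which covers counting error only. The summed level was 7871 ± 1192 CPM (SD, n = 3) in f/f and 8467 ± 310.5 CPM in LKO tumors, a log2 ratio of 0.11. Small subunit genes summed to 3461 ± 560 CPM in f/f and 3763 ± 155 CPM in LKO tumors, and large subunit genes to 4410 ± 634 CPM and 4703 ± 160 CPM. In tumors, which mix cell types, fewer cells of a type and less RNA per cell cannot be told apart.

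**Figure D1:**
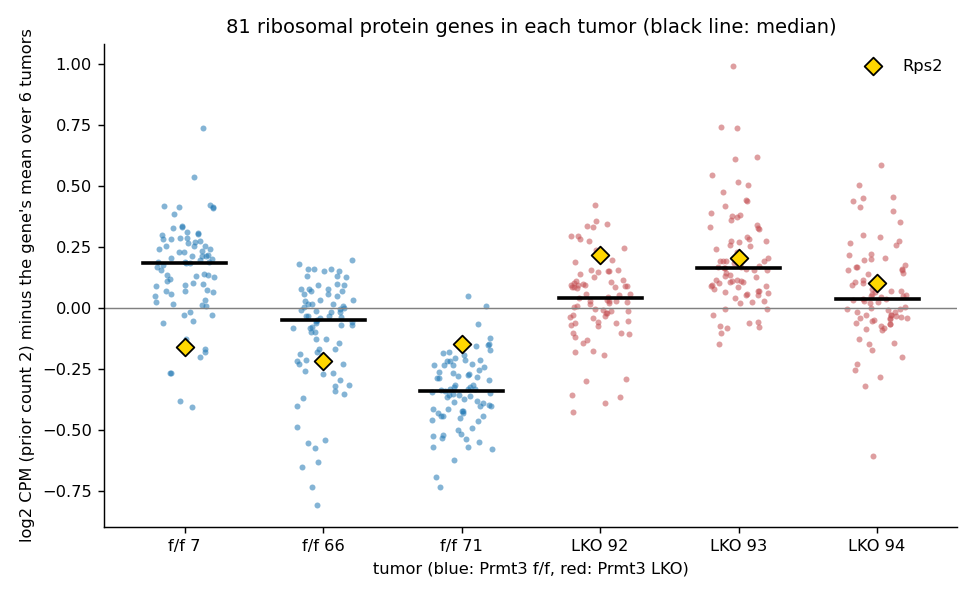
Each point is 1 of the 81 ribosomal protein genes that passed the filter, plotted as its log2 CPM minus its own mean over the 6 tumors (vertical axis) in each tumor (horizontal axis). Black lines are medians, which run from -0.34 in f/f 71 to 0.18 in f/f 7, and the diamond is Rps2, which was low in all 3 f/f tumors.

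The genes moved together from tumor to tumor, and more between the f/f tumors than between the genotypes. Of the 84 genes, 81 passed the filter on low counts, and 59 of these had their lowest level in f/f 71, while 37 had their highest in f/f 7. Relative to the mean of the 6 tumors, the median gene stood at 0.18, -0.05 and -0.34 on the log2 scale in f/f 7, 66 and 71, and at 0.04, 0.16 and 0.04 in LKO 92, 93 and 94. Between f/f 7 and f/f 71 the median difference was 0.52 on the log2 scale, and 76 of 81 genes were higher in f/f 7. Across the 6 tumors, the median correlation of a gene with the sum of the other ribosomal protein genes was 0.79, against -0.01 for all genes with the ribosomal protein total. This is a description, since all values of a tumor share its library. The library of f/f 71 was the deepest of the 6 and had the lowest share of Alb, while f/f 7 had the highest sum of cholangiocyte markers, 4103 CPM against 207 to 1016 CPM in the others. Their part in the spread was not tested.

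Against f/f tumors, 66 of 81 ribosomal protein genes had a positive log2 fold change in LKO tumors and 15 a negative one, where 50.1% of all genes tested were positive and 49.9% negative. The median was 0.12, beside 0.00 over all genes. It was 0.18 for the 33 small subunit genes and 0.09 for the 48 large subunit genes tested. This excess rests on f/f 71. Without that tumor the median was -0.00, 40 genes were positive and 41 negative, beside 50.3% and 49.7% of all genes, and 4 had an unadjusted p under 0.05 (all higher, beside 2.74% higher and 5.12% lower among all genes). Without f/f 7 it was 0.27, with 77 genes positive, beside 48.7% of all genes and 51.3% negative, and 18 had an unadjusted p under 0.05, all higher, beside 3.99% higher and 4.91% lower among all genes.

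Of the 81 genes, 0 passed an adjusted p of 0.05 with edgeR, DESeq2 or limma-voom, with or without the limit of a 2-fold change. Among all genes, 0.0% passed with edgeR and limma-voom, and with DESeq2 0.374% passed as lower and 0.101% as higher, or 0.31% and 0.0648% with the limit. At an unadjusted p under 0.05, edgeR gave 8 genes, all higher, where 2.2% of all genes were higher and 4.37% lower at this limit. DESeq2 gave 11, all higher, beside 2.2% higher and 4.53% lower among all genes. Limma-voom gave 10, all higher, beside 2.35% and 3.91%. In 17 genes every LKO tumor was above every f/f tumor, and in 0 genes below. Among all genes, 5.56% were above and 6.6% below in this way. Of the 17, 7 were small subunit and 10 large subunit genes. All 17 had a positive log2 fold change without f/f 71, but genes picked in this way stay positive almost by construction.

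Within the family, genes also differed in their share of the ribosomal protein counts of a tumor. For 16 genes, 11 of 33 of the small and 5 of 48 of the large subunit, this share was larger in every LKO tumor than in every f/f tumor, and 1.35% of all genes tested were higher on this scale. For 7 genes it was smaller in every LKO tumor, beside 10.7% of all genes. They included Rpsa, Rps4x, Rps24, Rps26, Rpl4 and Rpl6, of which Rps4x, Rps26 and Rpl6 were named after their values were seen. The difference between the subunits was not tested. This scale divides every gene by the family's own total, whose share of all counts was lowest in f/f 71. Genes outside the family thus tend to read high in f/f 71. The percentages of all genes are therefore not a like background for the counts of 16 and 7. Shares within the family also trade off against each other.

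**Figure D2:**
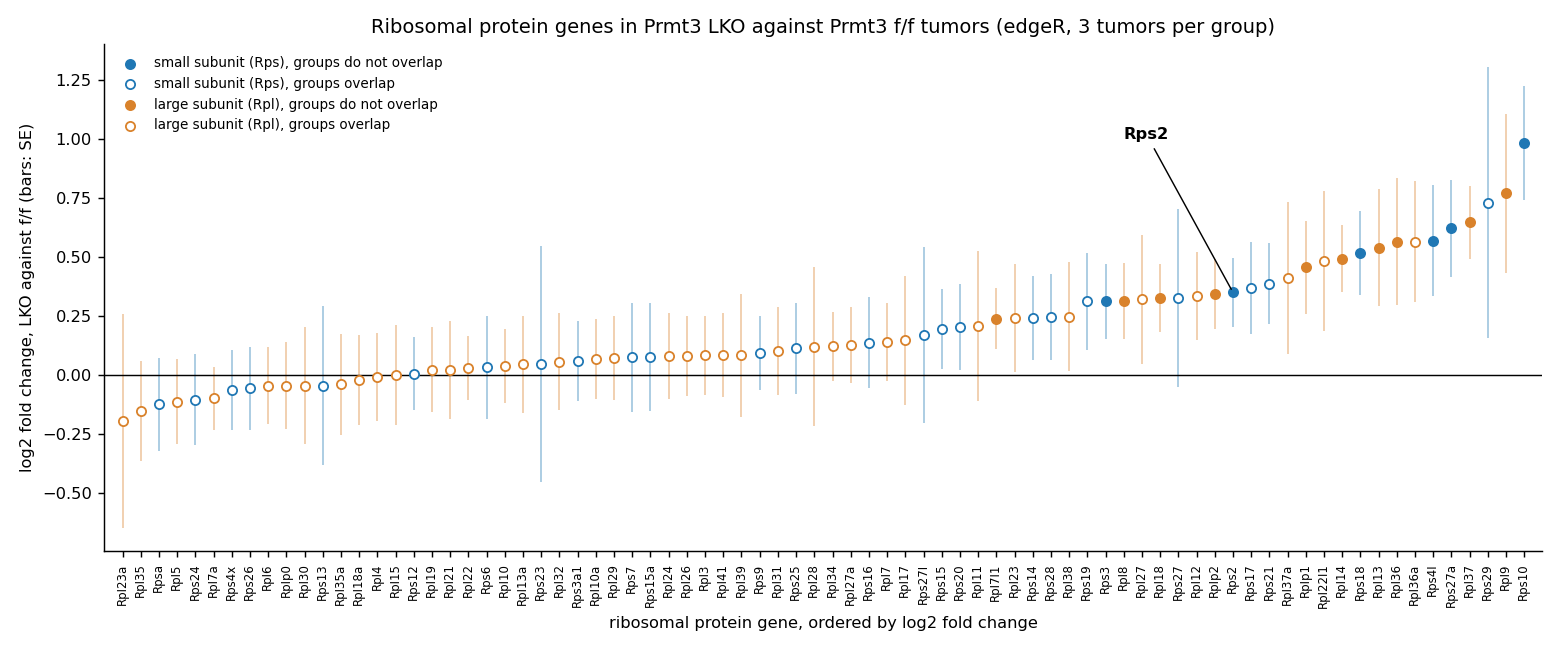
Log2 fold change of LKO against f/f tumors (vertical axis, bars are SE) for 78 of the 81 genes tested, in order (horizontal axis), with small subunit genes in blue and large subunit genes in orange. Filled points are 16 of the 17 genes whose groups did not overlap. They lie at 0.24 and above, and Rps2, which is marked, lies at 0.35.

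Rps2 was at 257, 247 and 259 CPM in f/f tumors and at 333, 331 and 308 CPM in LKO tumors. The 3 LKO tumors were all above the 3 f/f tumors. The means were 254 ± 6.502 CPM and 324 ± 14.2 CPM (SD, n = 3), a log2 fold change of 0.35 ± 0.15 (SE), with an adjusted p of 0.745 with edgeR and 0.347 with DESeq2. An exact two-sided permutation test of log2 CPM gave p = 0.1, the smallest that 3 against 3 tumors allow. Whichever tumor was left out, the log2 fold change stayed between 0.33 and 0.39. Rps2 was thus among the 17 genes without overlap and, with all 6 tumors, among the 8 with an unadjusted p under 0.05. But 17 ribosomal protein genes had a larger log2 fold change. With any 1 tumor left out, the unadjusted p of Rps2 with edgeR was 0.0531 or above. Of the 34 copies of Rps2, 6 were in the table. These 6 held 1.47% of the number of reads counted on Rps2 itself, and summing them left its log2 fold change at 0.35. The other copies could not be added. Snhg9, on the opposite strand, overlaps Rps2, and the use of strand in counting is not given in the sources used here.

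Relative to the other ribosomal protein genes, the groups overlapped for Rps2. It made up 2.89%, 3.03% and 3.95% of all ribosomal protein counts in f/f tumors 7, 66 and 71. It made up 3.96%, 3.76% and 3.76% in LKO tumors 92, 93 and 94. The share in f/f 71 lay among those of the LKO tumors. Relative to its mean over the 6 tumors, Rps2 stood at -0.15 on the log2 scale in f/f 71, where the median gene stood at -0.34. The means were 3.29% ± 0.57 and 3.83% ± 0.11 (SD, n = 3), a difference of 0.54 percentage points with p = 0.3 in an exact two-sided permutation test. Without f/f 71 the difference was 0.87 points. As a share of small subunit counts alone, Rps2 was at 7.49% ± 1.37 and 8.61% ± 0.32, with p = 0.4 in the same exact test. The correlation of Rps2 with the sum of the other genes across the 6 tumors was 0.34, below the family's median of 0.79. The family ranged from -0.22, in Rpl7a, to 0.99, so Rps2 was not the lowest.

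Proteins known to bind Rps2 besides PRMT3 include the chaperones Pdcd2 and Pdcd2l and the zinc finger protein Zfp277. Pdcd2 was at 10.7, 7.74 and 9.63 CPM in f/f and at 10.7, 11.9 and 12.0 CPM in LKO tumors. Its LKO values were above its f/f values by a narrow margin, with a log2 fold change of 0.31 ± 0.18 (SE). Pdcd2l had a log2 fold change of 0.02 ± 0.28 and Zfp277 of -0.15 ± 0.25, and the groups of both overlapped. The adjusted p of these 3 genes was 0.832 or above with edgeR.

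**Figure D3:**
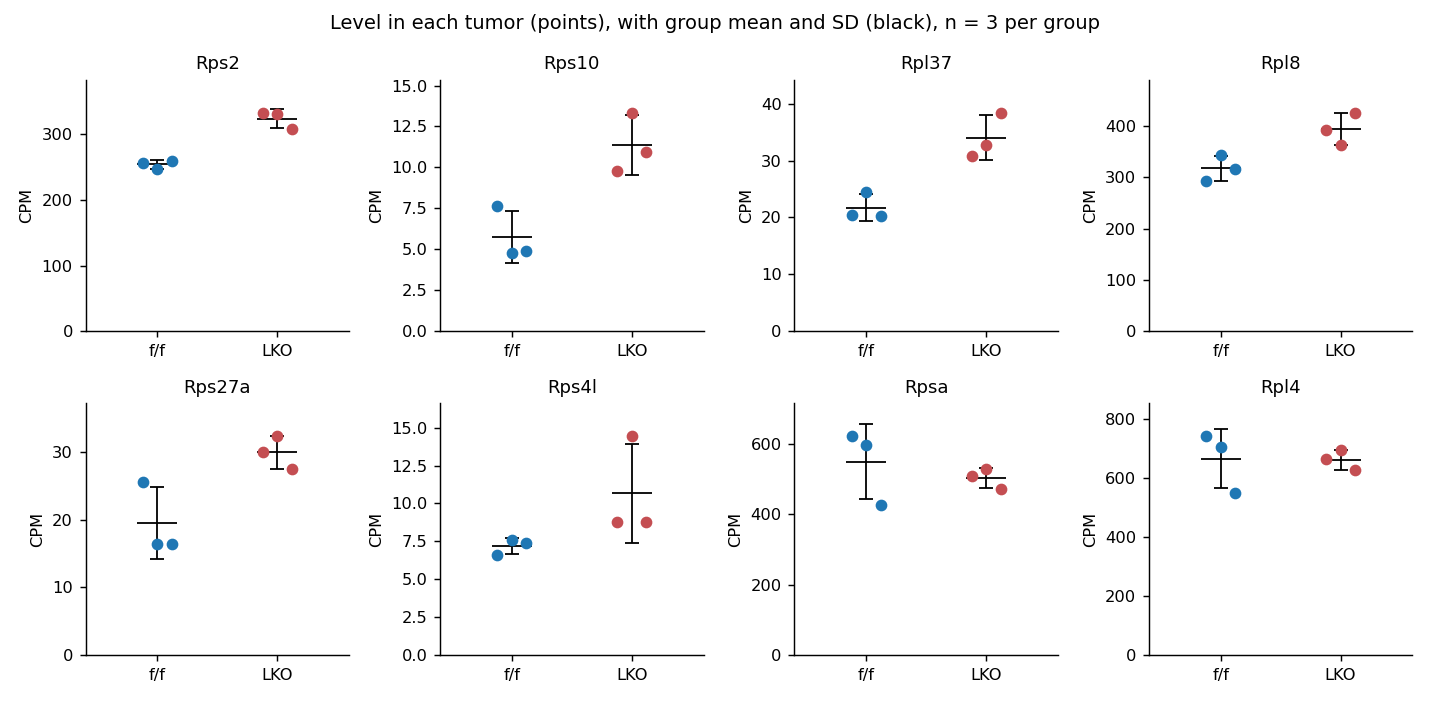
CPM (vertical axes, from 0) in each f/f (blue) and LKO (red) tumor for 8 named genes, with the group mean and SD in black (n = 3). Rps2, Rps10, Rpl37, Rpl8, Rps27a and Rps4l do not overlap between groups, and Rpsa and Rpl4 do.

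Among small subunit genes, the largest difference was in Rps10, whose protein sits in the head of the small subunit and is marked with ubiquitin when ribosomes collide. Rps10 was at 7.62, 4.76 and 4.89 CPM in f/f and at 9.77, 13.4 and 10.96 CPM in LKO tumors. The groups did not overlap, and the fitted fold was 1.98, a log2 fold change of 0.98 ± 0.24 (SE, adjusted p 0.592 with edgeR and 0.0851 with DESeq2). Rps10 overlaps the annotated readthrough gene RPS10-NUDT3 on the same strand, which was not analysed here.

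Rps27a, which is made as a fusion with ubiquitin, was at 25.7, 16.4 and 16.5 CPM in f/f and at 30.1, 32.4 and 27.5 CPM in LKO tumors, a log2 fold change of 0.62 ± 0.21. It was higher in every LKO tumor, with an adjusted p of 0.648 with edgeR. Rps29, which encodes a small zinc-binding protein, had a log2 fold change of 0.73 ± 0.58, but at 0.23 to 1.04 CPM its groups overlapped.

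The lowest log2 fold changes of the small subunit were within the spread between tumors. Rpsa, also known as the laminin receptor, was at 622, 599 and 427 CPM in f/f and at 508, 530 and 472 CPM in LKO tumors. The f/f tumors spanned the LKO range on both sides, and the log2 fold change was -0.13 ± 0.20 (SE). Rps24 was at 164, 147 and 105 CPM in f/f and at 123, 137 and 126 CPM in LKO tumors, a log2 fold change of -0.11 ± 0.19.

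Among large subunit genes, Rpl37 had the smallest p. It was at 20.4, 24.5 and 20.3 CPM in f/f and at 30.9, 32.8 and 38.5 CPM in LKO tumors, so that the groups were separate. The log2 fold change was 0.65 ± 0.15 (SE, adjusted p 0.592 with edgeR and 0.106 with DESeq2). With the counts of its copies added, a choice made after the data had been seen, it was 0.33 and no longer had an unadjusted p under 0.05. Rpl9 had a log2 fold change of 0.77 ± 0.34 without overlap, but from 1.12 to 1.75 CPM in f/f and 1.83 to 2.66 CPM in LKO tumors, and of 0.36 with its copies added. Rpl14, named after its values were seen as the only other large subunit gene with an unadjusted p under 0.05, was at 58.2, 51.0 and 58.0 CPM in f/f and at 73.1, 88.2 and 73.9 CPM in LKO tumors, a log2 fold change of 0.49 ± 0.14.

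The stalk protein gene Rplp1, one of the 4 most abundant by FPKM, was at 238, 186 and 152 CPM in f/f and at 256, 285 and 248.7 CPM in LKO tumors. Its log2 fold change was 0.46 ± 0.20 (SE), with an adjusted p of 0.761 with edgeR. Rpl8 was at 293, 343 and 317 CPM in f/f and at 393, 363 and 427 CPM in LKO tumors, a log2 fold change of 0.31 ± 0.16. In both genes the groups did not overlap. Rpl4, whose protein lines the exit tunnel of the nascent chain, was the most abundant gene of the family in CPM, at 741, 704 and 550 CPM in f/f and at 664, 693 and 626 CPM in LKO tumors. Its log2 fold change was -0.01 ± 0.19.

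The lowest log2 fold changes among large subunit genes were -0.20 ± 0.45 (SE) in Rpl23a, -0.15 ± 0.21 in Rpl35, -0.11 ± 0.18 in Rpl5 and -0.10 ± 0.13 in Rpl7a. In all 4 genes the groups overlapped. Rpl5, whose protein binds Mdm2 when ribosome assembly is disturbed, ran from 16.6 to 24.2 CPM in f/f and from 16.9 to 20.7 CPM in LKO tumors. Rpl7a and Rpl22 were the steadiest genes, with SDs of log2 CPM over the 6 tumors of 0.10 and 0.09. The least steady were Rps29, Rps10 and Rps27l, with 0.62, 0.61 and 0.54.

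Of the 7 paralogs of other ribosomal protein genes that the symbol rule took in, 3 had next to no counts. Rpl10l, a paralog used in the testis, had 0 counts in all tumors, which, at 3 counts, allows a level of 0.106 CPM in the deepest and 0.172 CPM in the shallowest library. Rpl3l, which is known from muscle, had 1 count in all and Rpl39l had 3. The 4 others passed the filter. Rpl7l1 was at 60.4, 57.2 and 51.7 CPM in f/f and at 63.6, 68.7 and 67.6 CPM in LKO tumors, without overlap, at a log2 fold change of 0.24 ± 0.13 (SE). Rps27l, a target of p53 and close relative of Rps27, was at 103, 39.4 and 43.2 CPM in f/f and at 54.2, 80.4 and 74.1 CPM in LKO tumors. Its spread within f/f was larger than the difference, 0.17 ± 0.37 on the log2 scale. Rpl22l1, the paralog of Rpl22, was at 20.3, 10.4 and 11.7 CPM and at 14.9, 24.8 and 19.5 CPM, a log2 fold change of 0.48 ± 0.30 with overlap, which ranged from 0.28 without LKO 93 to 0.83 without f/f 7. Rps4l was at 6.60, 7.56 and 7.42 CPM and at 8.80, 14.4 and 8.75 CPM, a log2 fold change of 0.57 ± 0.24 without overlap, and of 0.29 without LKO 93. GENCODE M21 annotates Rps4l as a transcribed processed pseudogene, although its symbol meets the rule.

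Reads counted on near-identical copies were set beside those of the genes. Copies were taken as genes or pseudogenes of GENCODE M21 whose transcripts share at least 100 words of 50 bases with the transcript of a ribosomal protein gene. There were 430, of which 407 are pseudogenes, and 71 ribosomal protein genes had at least 1. Of the 430, 54 could be matched to the deposited table, and the others were not analysed here. The 54 held 44022 counts per tumor on average, beside 176552 for the ribosomal protein genes themselves. In 12 genes the copies in the table held more counts than the gene. The ratio was 107 for Rpl23a, 54.2 for Rpl9, 41.6 for Rps27 and 39.2 for Rpl11, and it was 1.57 for Rpl35, the lowest of the 12. Rps27rt, with the same coding sequence as Rps27, had a mean of 1248 counts.

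When the counts of copies were added to their gene, several of the larger differences shrank. Rpl37 went from 0.65 to 0.33, Rpl9 from 0.77 to 0.36, Rpl12 from 0.34 to -0.01 and Rps27 from 0.33 to -0.00. With copies added, the groups of Rpl37 and Rpl9 still did not overlap. The unadjusted p with edgeR went from 0.003236 to 0.06867 for Rpl37 and from 0.05386 to 0.03177 for Rpl9. Their adjusted p with copies added was 0.773 and 0.697. Over the 12 genes the median went from 0.26 to 0.04, and over all 81 genes from 0.12 to 0.11. With copies added, 16 genes had groups without overlap, all higher, where 5.53% of all features were higher and 6.62% lower in this way. At an unadjusted p under 0.05 there were 7, all higher, beside 2.19% higher and 4.37% lower among all features. Rps10 has 2 copies, neither matched to the table, so nothing could be added and its value of 0.98 could not change.

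**Figure D4:**
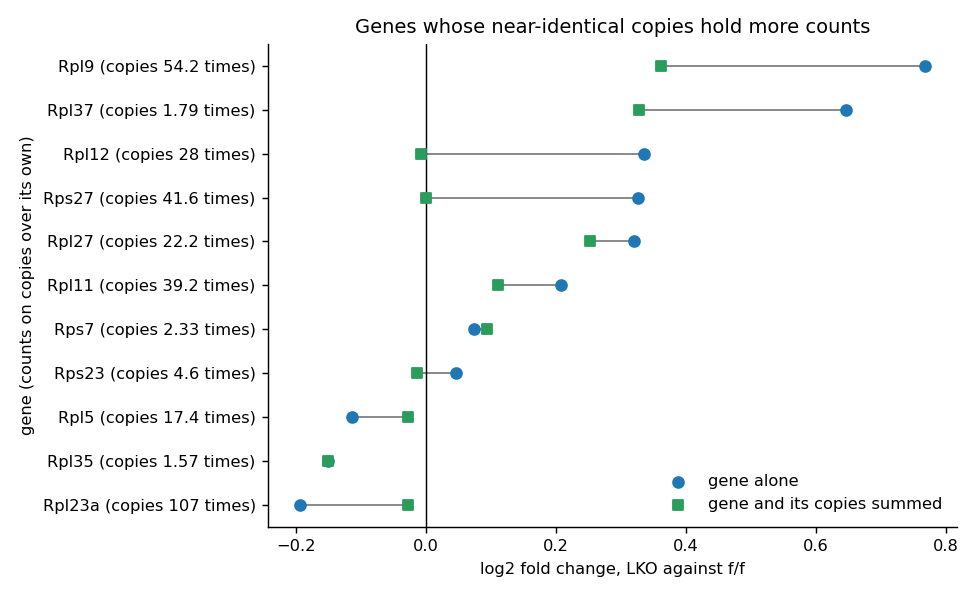
Log2 fold change of LKO against f/f tumors (horizontal axis) for 11 of the 12 genes whose copies held more counts than the gene (vertical axis, with the ratio of the counts). Circles are the gene alone, from -0.20 to 0.77, and squares the gene with its copies, from -0.15 to 0.36.

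Levels of different genes can be compared only per length of RNA. The gene length implied by the deposited FPKM exceeded the whole genomic span of the gene in 31 of 83 genes with an implied length. For Rpl9 it was 10922 bases against a span of 3081. Counts were therefore divided by the length of a GENCODE coding transcript. By mean count per kb of transcript, Rplp1 (9757), Rps15 (9403), Rpl4 (9342) and Rpl8 (9035) were highest, and Rps2 was at 6265. Among the genes that passed the filter, Rps23 (16.9), Rpl23a (26.2) and Rps29 (29.1) were lowest. The median was 1219. In a complex whose proteins are needed in near equal numbers, 11 genes were under 100 counts per kb. Of these, 3 were the paralogs with next to no counts and 5 had copies with more counts. By deposited FPKM, the lowest 4 of the genes that passed the filter were Rps13, Rpl9, Rps27 and Rpl23a.

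**Figure D5:**
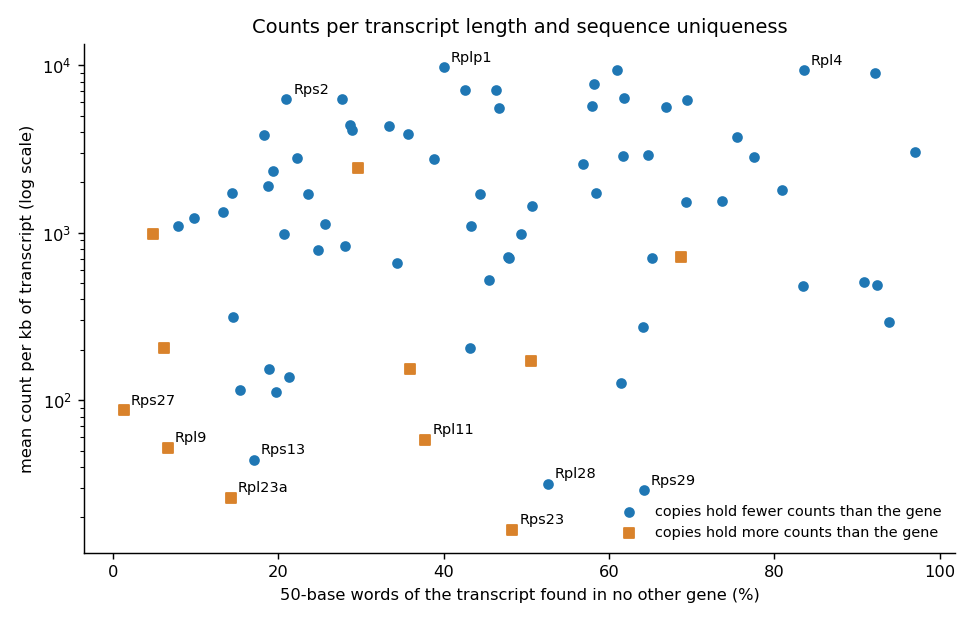
Mean count per kb of transcript over the 6 tumors (vertical axis, log scale) against the share of 50-base words of the transcript found in no other gene (horizontal axis), for 77 genes with a coding transcript and a mean above 1 count. Squares are 11 of the 12 genes whose copies held more counts. They include Rps23, Rpl23a and Rpl9, while Rps2 reaches 6265 with 20.97% of its words unique.

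The share of 50-base words found in no other gene ranged from 1.35% in Rps27 to 100%, as in Rpl3l and Rpl39l, with a median of 45.5%. Its Spearman correlation with counts per kb over genes was 0.15, a description only, as genes are not replicates. Genes with under 25% unique words had a median log2 fold change of 0.07 (23 genes), and those above 75% of 0.17 (11 genes).

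Promoter sequence was examined because ETS factors such as Gabpa and the factor YY1 are known to bind promoters of ribosomal protein genes. The RefSeq table (GRCm38.p6) held 75 promoters of 63 of these genes, each from 250 bases before to 50 after the start. The ETS core CCGGAAG, on either strand, was in 27 of them and in 8.86% of all promoters in the table. The YY1 core AAGATGG was in 12, beside 6.34% of all promoters. The 100 bases before the start are shown for Rps2 and for 3 genes named above for their differences, with matches in capitals.
Rps2: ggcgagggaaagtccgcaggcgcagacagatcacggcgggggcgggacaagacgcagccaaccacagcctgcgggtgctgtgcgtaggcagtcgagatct
Rps10: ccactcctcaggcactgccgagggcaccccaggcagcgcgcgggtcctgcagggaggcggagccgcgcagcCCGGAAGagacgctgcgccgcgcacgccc
Rpl37: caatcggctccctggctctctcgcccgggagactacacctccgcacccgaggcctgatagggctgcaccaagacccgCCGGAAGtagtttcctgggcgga
Rpl14: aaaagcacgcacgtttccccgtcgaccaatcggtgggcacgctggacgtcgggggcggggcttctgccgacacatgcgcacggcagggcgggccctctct
They lie at chr17:24719963-24720062 (+), chr17:27635245-27635344 (-), chr15:5116513-5116612 (+) and chr9:120571417-120571516 (+). The starts are those of the RefSeq table. The windows of Rps2 and Rps10 therefore lie inside the gene spans of the deposited table, 24718116 to 24721929 and 27630422 to 27636629 on chromosome 17. The windows of Rps10 and Rpl37 hold the ETS core, and those of Rps2 and Rpl14 hold neither. A match is a run of letters and says nothing of binding in these tumors.

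The symbol rule misses some genes of the cytosolic ribosome. Fau, the ubiquitin-like fusion of a small subunit protein, was at 93.02, 80.8 and 71.1 CPM in f/f and at 102, 97.6 and 103 CPM in LKO tumors, a log2 fold change of 0.30 ± 0.15 (SE) without overlap. Rack1, a scaffold on the small subunit that the table lists under its older symbol Gnb2l1, had a log2 fold change of 0.17 ± 0.21 and Rpl36al of 0.15 ± 0.14, both with overlap. The adjusted p of Fau, Rack1 and Rpl36al was 0.776 or above with edgeR.

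Mitochondrial ribosomal proteins, which build a separate ribosome, are given for comparison. All 77 passed the filter, 57 were positive, and their median log2 fold change was 0.11. Of all genes tested, 50.1% were positive. Among the 77, 10 had an unadjusted p under 0.05 and 14 had groups without overlap, all higher in LKO tumors, beside 2.2% and 5.56% higher and 4.37% and 6.6% lower among all genes. With 1 tumor left out, the median ranged from 0.07 to 0.18. Mrps24 (0.52 ± 0.18, SE) and Mrpl3 (0.50 ± 0.17) were highest, and Mrpl21 (-0.27 ± 0.21) and Mrpl24 (-0.16 ± 0.13) lowest. Mrpl21 was at -0.04 without f/f 7.

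Among 59 genes of ribosome biogenesis tested, the median log2 fold change was 0.13, with 43 positive and 16 negative, beside 50.1% and 49.9% of all genes. The groups did not overlap in 6 genes that were higher and 2 that were lower in LKO tumors, beside 5.56% and 6.6% of all genes. The nucleolar chaperone Npm1 was at 154, 145 and 119 CPM in f/f and at 96.1, 112 and 101 CPM in LKO tumors, lower in every LKO tumor, at -0.44 ± 0.16 (SE). Taf1d, a subunit of the initiation factor of rRNA transcription, was also lower in every LKO tumor (-0.49 ± 0.24), and Tsr1 (0.43 ± 0.21) and Bysl (0.41 ± 0.23), both needed to mature the small subunit, were highest. Tsr1 was at 0.20 without LKO 93, Bysl was at 0.20 without f/f 7, and Taf1d was at -0.32 without f/f 66. In this list 1 gene was lower and 1 higher at an unadjusted p under 0.05, near the 4.37% and 2.2% of all genes.

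Among 34 translation factors the median was 0.06, with 26 positive and 8 negative, beside 50.1% and 49.9% of all genes. The groups did not overlap in 4 that were higher and 2 that were lower in LKO tumors, beside 5.56% and 6.6% of all genes. The cap-binding factor Eif4e was at 51.9, 44.7 and 40.7 CPM in f/f and at 14.0, 17.95 and 38.3 CPM in LKO tumors, below f/f in each but close to it in LKO 94, at a log2 fold change of -0.97 ± 0.35 (SE), and of -1.52 without LKO 94. Eif4a1 (0.29 ± 0.15) and Eif5 (0.28 ± 0.17) were highest and Eif1ax (-0.16 ± 0.12) was second to Eif4e from the bottom. Of 19 regulators of ribosomal protein genes, such as Mtor, Larp1 and Myc, 0 had groups without overlap or an unadjusted p under 0.05 with edgeR, and the median was 0.09. Among all genes, 6.6% were lower and 5.56% higher without overlap, so that a count of 0 in a list of this length is near the background. Mycn (0.32 ± 0.54) and Rps6kb2 (0.24 ± 0.22) were highest, and Gabpa (-0.08 ± 0.13) and Zbtb7a (-0.05 ± 0.23) lowest. The smallest adjusted p in the lists of mitochondrial ribosomal proteins, biogenesis, translation factors and regulators was 0.606, 0.652, 0.684 and 0.890 with edgeR.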

How the data were processed

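RNA-seq was made from 6 tumors, 3 in each group, with mRNA separated from total RNA. Per the submitters' processing notes, bcl2fastq 2.19, HISAT2 2.0.4 and StringTie 1.3.0 were used with the build GRCm38. How reads with several matches, strand and annotation were handled in counting is not given in the sources used here. The authors deposited raw counts and FPKM, which divide the count by gene length and by the total count. All 12 columns of values were used, and 0 were left out.

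Counts were filtered with filterByExpr (minimum count 10, minimum total 15), scaled by TMM and fitted in edgeR 4.0.16 (R 4.3.3), whose quasi-likelihood test compared the groups, with Benjamini-Hochberg adjustment over 13892 genes. The calls took an adjusted p under 0.05 and a 2-fold change. DESeq2 1.42.0 and limma 3.58.1 were alternatives. Log2 CPM used a prior count of 2, and log2 FPKM a pseudocount of 1. The fit was tested on simulated counts. Copies include genes whose transcripts hold such a stretch beside their own sequence, such as Uimc1, Med21 and Wdr89. Within a group, every pair of libraries differed beyond counting noise (chi-square per degree of freedom of at least 46.1). Whether tumors came from separate mice is not stated in the labels, so p-values measure the spread between these tumors. The genes, lists and tests were chosen with earlier results of these data known. Named were Rps2 and its partners, paralogs, the genes that the rule misses, the 6 lowest and 6 highest log2 fold changes, the 6 largest without overlap, the 4 highest and lowest FPKM, the 3 most and least steady, and the 2 lowest and highest of each other list. Some genes that this rule names are not reported here and were left out of the plots of named genes.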

Additional observations from a re-analysis of the deposited data

How the results depend on the processing

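No paired analysis was possible because the groups share no replicate numbers. Of 785 values under alternative settings, 171 concern whole comparisons and 614 concern 44 single genes. Of the 171, 165 kept their direction and their side of the threshold, as did 587 of the 614, and 27 values of 14 genes turned in direction. The cause of these changes was not tested. With DESeq2, 52 genes were called, or 66 without the fold limit, and Prmt3, at -1.547, passed the threshold (adjusted p 0.00357). With no filter beyond 1 count, edgeR called 2 genes under either limit. The median of the biogenesis genes ranged from 0.026 (without LKO 93) to 0.187 with 1 tumor left out, and the log2 ratio of the summed ribosomal protein level from -0.008 (without f/f 71) to 0.194. The median of the regulators was -0.006 without f/f 7.

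Among genes close to 0, scaling by library size gave -0.001 for Pdcd2l. Upper-quartile scaling gave -0.015 for Pdcd2l and -0.003 for Rpl22, and with copies summed, Rps27 was at -0.001. With 1 tumor left out, the log2 fold change crossed 0 in 13 of the 44 single genes. Ribosomal protein genes outside these 44 crossed 0 too, such as Rpl10 (-0.076 to 0.139). Without f/f 71, 55 of the 81 ribosomal protein genes tested kept the direction seen with all 6 tumors. Among the 13 genes, the ranges were as follows. It ranged from -0.127 to 0.603 for Mycn, -0.122 to 0.336 for Pdcd2l, -0.116 to 0.209 for Rpl13a, -0.028 to 0.075 for Rpl22 and -0.537 to 0.047 for Rpl23a. It ranged from -0.348 to 0.03 for Rpl35, -0.127 to 0.066 for Rpl4, -0.236 to 0.03 for Rpl5 and -0.165 to 0.082 for Rps13. The range was -0.269 to 0.023 for Rps24, -0.072 to 0.743 for Rps27l, -0.262 to 0.18 for Zbtb7a and -0.334 to 0.026 for Zfp277. For Rps2 no setting changed the direction or the call, which takes the adjusted p. Its unadjusted p with edgeR was 0.04454 with TMM and all 6 tumors. It was 0.07242 without TMM, 0.05245 with upper-quartile scaling and 0.07225 with no filter beyond 1 count. With 1 tumor left out it ran from 0.0531 to 0.1304. It stayed under 0.05 with DESeq2, limma-voom, a mean of at least 1 CPM, log2 FPKM and copies summed. The share of counts of Rps2 does not depend on scaling or on the filter, so these gave no separate value.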

Other observations

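Among the genes whose log2 CPM followed Rps2 most closely over the 6 tumors were Rpl14 (r = 0.94), Rps10 (0.89), Rplp2 (0.87) and Rps27a (0.85). Those least like it were Rpl7a (-0.41), Rpl5 (-0.37) and Rpsa (-0.29). The points share their libraries, and no test was made.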
